A study of Mus musculus with 15 samples.

Results

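The genes described are 6 matrix metalloproteinases (MMPs), Mmp2, Mmp3, Mmp9, Mmp11, Mmp13 and Mmp14, and 3 tissue inhibitors of metalloproteinases (TIMPs), Timp1, Timp2 and Timp3, of the mouse. Every probe set was taken to which the platform annotation gave 1 of these symbols and no other. This gave 14 probe sets of the 10833 with a single symbol, and 9 of the 8251 genes so named. A mean signal of at least 24.8 intensity units was required for testing, and 7 of the 9 genes passed, each by 1 probe set, among 5680 genes tested.

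MMPs are zinc-dependent endopeptidases that are made as inactive precursors and, once activated, cut collagens and other matrix proteins outside the cell. TIMPs are secreted proteins that block the active site of MMPs, so that matrix turnover depends on the balance of enzyme and inhibitor. In bone, cells of the osteoblast lineage lay down and remodel a collagen matrix, and collagenase 3, encoded by Mmp13, is a known product of these cells, while gelatinase B, encoded by Mmp9, is best known from osteoclasts.

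RNA came from clone 1b of MC3T3, a cell line from mouse calvaria that is used as a model of osteoblast differentiation, so all values refer to 1 clonal line. The 15 arrays formed 5 groups of 3. Cultures called treated here had received ascorbic acid (AA, a cofactor of collagen hydroxylation) and bone morphogenetic protein 2 (BMP-2, a bone-inducing growth factor) on top of beta-glycerol phosphate (GP, a phosphate source) for 1 day or for 3 days. Their controls had received GP alone for 1 day or 3 days, and the fifth group was control medium at day 0. AA and BMP-2 were always given together, GP was shared by every group after day 0, and GP and time changed together between day 0 and the GP groups. Each array also had a prep number from 1 to 3, which is the replicate. The labels do not say whether preps were separate cultures, and the spread that the p-values rest on may thus be technical.

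The arrays of prep 3 stood apart from the others over all genes. Of the total variance 32.8% lay on the first principal component, which placed the 5 prep 3 arrays at -41.3 to -26.0, against 0.78 to 27.0 for the 10 arrays of preps 1 and 2. Prep 3 arrays also had 12.1% to 14.3% of probe sets at the signal floor of 2.8, against 7.29% to 10.05% in preps 1 and 2, and the GP day 3 array of prep 3 had an actin 3' to 5' ratio of 2.11, against 1.00 to 1.34 on the others. Arrays with the same prep number deviated together from their group means in every pair, so the numbers were taken to pair the samples. Calls are therefore given from the unpaired fit and from the paired fit, which has the prep number as a block. Of 7 osteoblast markers on the array 6 passed the filter, among them Col1a1, and the summed osteoblast marker signal was 10883 to 13244 in treated day 3 cultures and 7489 to 10869 in GP day 3 cultures. Of markers of other cell types, 1 of 7 endothelial (Flt1), 1 of 5 epithelial (Cdh1), 0 of 4 chondrocyte and 0 of 4 adipocyte genes passed. Col1a1 makes up most of that sum. Of the 6 osteoblast markers tested, 2 were higher and 1 lower in treated than in GP day 3 cultures in the unpaired limma fit, where 4.28% of all tested probe sets passed. Alpl, tissue-nonspecific alkaline phosphatase, was 4.58 ± 0.50 log2 units higher (SE, adjusted p = 0.0004), Pth1r, the parathyroid hormone receptor, whose lowest value of 2.4 was under the floor, was higher (adjusted p = 0.025), and the cadherin Cdh11 was at -1.24 ± 0.17 (adjusted p = 0.0014).

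Signal was found for a collagenase, a gelatinase, a stromelysin-related enzyme, a membrane-bound MMP and all 3 inhibitors. Mmp13 averaged 849 intensity units over the 15 arrays, with a lowest value of 14.3 and a highest of 2080.5. Mmp9 averaged 100.3 (5.5 to 547.7), and on 6 arrays it lay under the filter value of 24.8. Mmp11, stromelysin 3, averaged 142 (94.2 to 246.8), and Mmp14, a membrane-anchored collagenase that is the known activator of the Mmp2 precursor, averaged 1613 (1081.6 to 2048.2). Timp1 averaged 3730 (1322.9 to 8291.5), Timp2 averaged 911 (568.4 to 1202.3) and Timp3, the inhibitor that binds to the matrix, averaged 713 (391.4 to 1408.4). Intensities of different probe sets depend on the probes as well as on the RNA, so these levels are not ranked against each other.

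Mmp2 and Mmp3 did not pass the filter. Mmp2, gelatinase A, had a probe set averaging 23.8 (11.7 to 37.5), just outside the filter, and another averaging 9.43 (0.7 to 23.9). Mmp3, stromelysin 1, averaged 7.56 (1.0 to 20.3). The further probe sets of Mmp9, Timp1 and Timp2 averaged 5.29 to 13.7 and were not tested either, so no gene had more than 1 tested probe set to compare. Signals this low do not show whether the transcripts were absent.

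Promoter sequences were available for 7 of the 9 genes from the RefSeq table of GRCm38.p6. They are shown for Mmp13, the member whose signal moved most with the prep number, and for Timp1 and Timp3, whose signals in treated and GP cultures differed in opposite directions at day 3. Each is the 250 bases before the annotated start, 5′ to 3′ on the strand of the gene, and all 3 genes lie on the plus strand (chr9:7272264-7272513 for Mmp13, chrX:20869916-20870165 for Timp1, chr10:86300162-86300411 for Timp3). Capitals mark matches on either strand to AP-1 (TGANTCA), Runx (TGTGGT), the TATA box (TATAAA) or the GC box (GGGCGG).
Mmp13: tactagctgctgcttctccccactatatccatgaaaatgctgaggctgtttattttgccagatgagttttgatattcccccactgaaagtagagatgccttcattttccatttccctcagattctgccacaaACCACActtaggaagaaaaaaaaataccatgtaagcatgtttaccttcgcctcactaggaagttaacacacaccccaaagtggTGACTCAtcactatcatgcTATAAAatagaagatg
Timp1: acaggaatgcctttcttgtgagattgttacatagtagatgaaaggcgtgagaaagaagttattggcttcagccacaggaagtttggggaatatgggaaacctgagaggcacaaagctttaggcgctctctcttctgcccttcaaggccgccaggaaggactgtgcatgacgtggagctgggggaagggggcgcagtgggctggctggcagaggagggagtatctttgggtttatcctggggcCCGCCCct
Timp3: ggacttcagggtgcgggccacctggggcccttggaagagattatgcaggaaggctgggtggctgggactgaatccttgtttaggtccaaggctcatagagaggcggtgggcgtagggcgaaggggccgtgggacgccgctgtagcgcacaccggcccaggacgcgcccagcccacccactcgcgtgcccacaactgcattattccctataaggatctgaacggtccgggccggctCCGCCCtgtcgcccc
The Mmp13 window held an AP-1 match that begins at position -35 from the start, a Runx match at -118 and a TATA box at -16. The windows of Timp1 and Timp3 held neither AP-1, Runx nor TATA letters and had a GC box match each, at -8 in Timp1 and at -15 in Timp3. Over 32817 promoters of the same length, 6.75% held an AP-1 match, 14.0% a Runx match, 12.4% a TATA box and 32.7% a GC box. ETS letters (CAGGAA, in 25.7% of promoters) and a Smad GC element (GGCGCC, in 9.59%) were searched as well and left in lower case. ETS letters matched at 3 places in Timp1 and 1 in Timp3, and no match overlapped another in these 3 windows. Letters that match are a description of the sequence and do not show that a factor bound there.

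**Figure D1:**
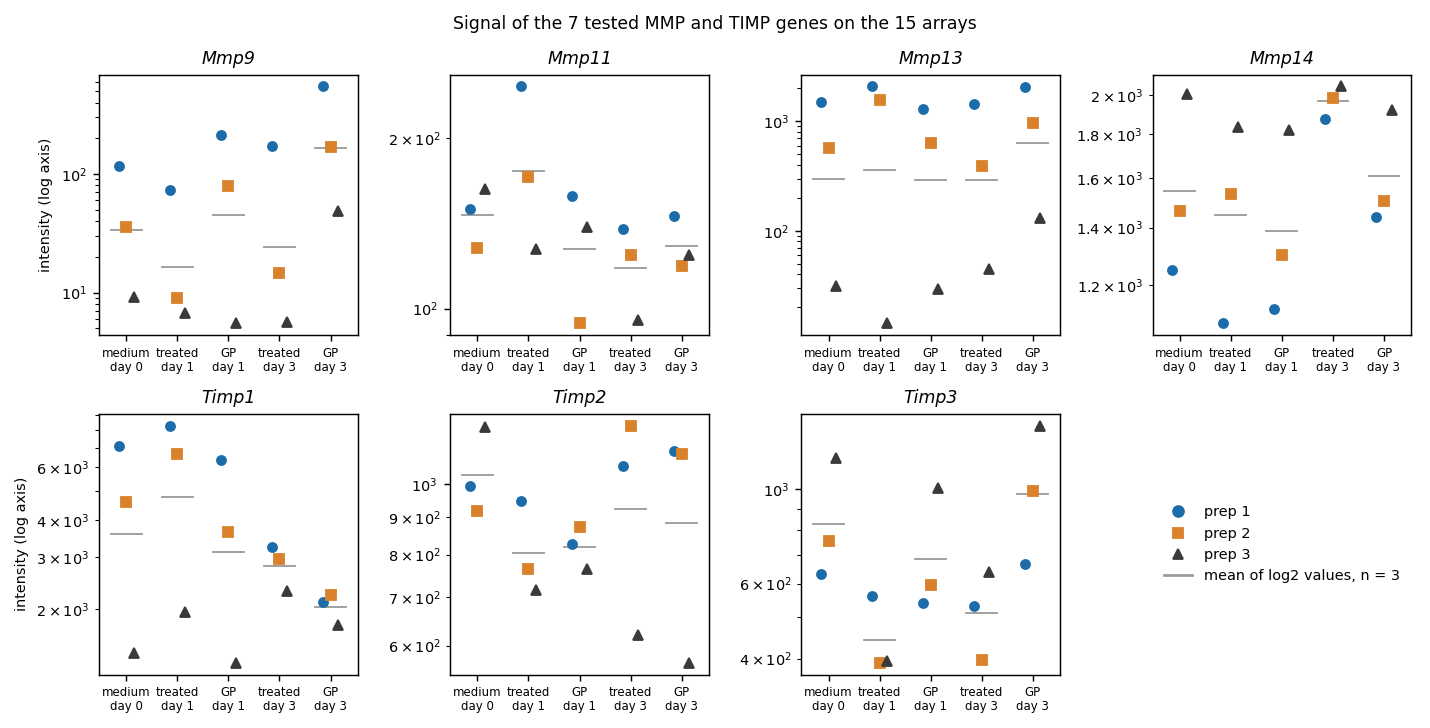
Signal of the 7 tested genes on each of the 15 arrays, in intensity units on a log axis, by group, with a symbol for each prep number and a grey line at the mean of the 3 log2 values. Mmp13 and Mmp9 lie lowest in prep 3 in all 5 groups, while Timp3 at day 3 lies lower in all 3 treated arrays than in any GP array.

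The comparison of treated with GP cultures at day 3 asks what AA and BMP-2 changed after 3 days. Its GP array of prep 3 is the one with the actin 3' to 5' ratio of 2.11. That array also enters the comparisons of GP day 3 with GP day 1 and with day 0. Its part in these differences was not tested. Mmp9 and Timp3 were lower in treated cultures of every prep, and both passed the test once prep numbers were paired. Mmp13 was also lower in all 3 preps, and Mmp14 and Timp1 were higher in all 3, without passing in either fit with all arrays. More members passed when the paired fit held only the groups compared, a setting added after the data had been seen. Timp2 and Mmp11 went both ways among preps.

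Mmp9 read 172.2, 14.6 and 5.6 in treated day 3 cultures of preps 1, 2 and 3, against 547.7, 169.7 and 48.5 in GP day 3 cultures. The ranges of the groups overlapped and preps differed widely, and within each prep the treated culture was lower, at 0.31, 0.086 and 0.12 of its GP culture. The mean log2 difference was -2.77 ± 0.51 (SE, n = 3 per group, adjusted p = 0.0031) in the paired fit and -2.77 ± 1.53 (adjusted p = 0.401) in the unpaired fit. Of these treated values, 14.6 and 5.6 lay under the filter value of 24.8, and with the floor raised to 45.6, the median of all values, the paired difference shrank to -1.22 (adjusted p = 0.106). The summed signal of 12 macrophage and osteoclast markers was 903.9 to 1244 in treated day 3 and 1004 to 1105 in GP day 3 cultures, and 0 of the 3 that passed the filter (Cd14, Ctsk and Csf1r) passed the test there in either fit. Cd14, with a mean of 602, and Ctsk, with a mean of 368, make up most of that sum. In cultures measured in bulk, fewer cells that express a gene and less RNA per cell cannot be told apart.

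Timp3 read 531.8, 396.4 and 637.5 in treated day 3 cultures of preps 1, 2 and 3, against 666.8, 990.3 and 1408.4 in GP day 3 cultures. The groups did not overlap. Timp3 averaged 522 ± 121 in treated and 1022 ± 372 in GP cultures (SD, n = 3 each), and the within-prep ratios of treated to GP were 0.80, 0.40 and 0.45. The log2 difference was -0.93 ± 0.24 (adjusted p = 0.018) in the paired fit and -0.93 ± 0.32 (adjusted p = 0.123) in the unpaired fit. The paired call was lost without any single one of 4 arrays, namely prep 2 or prep 3 of either group (adjusted p 0.055 to 0.094). It was also lost without all of prep 2 (-0.73, adjusted p = 0.253), without all of prep 3 (-0.82, adjusted p = 0.0545), with the floor at 45.6 (adjusted p = 0.0511) and with no filter (adjusted p = 0.0585).

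Mmp13 read 1447.4, 388.7 and 44.4 in treated day 3 cultures and 2054.1, 957.7 and 129.7 in GP day 3 cultures. The treated culture was lower in 3 of 3 preps, with a paired log2 difference of -1.12 ± 0.52 that did not pass (adjusted p = 0.19), and the group ranges overlapped. Mmp14 read 1877.4, 1983.9 and 2048.2 in treated and 1439.9, 1504.8 and 1919.9 in GP day 3 cultures, higher in 3 of 3 preps with a paired difference of 0.29 ± 0.12 (adjusted p = 0.128). Its treated values were close together, at 1970 ± 86.3 (SD), against 1622 ± 260 in GP cultures, and the lowest treated value lay below the highest GP value. Without the treated prep 3 array, Mmp14 passed, at 0.43 (adjusted p = 0.0281).

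Timp1, which inhibits most secreted MMPs, read 3236.1, 2952.8 and 2311.8 in treated day 3 cultures and 2117.0, 2226.9 and 1773.8 in GP day 3 cultures. These groups did not overlap, and the within-prep log2 differences were 0.61, 0.41 and 0.38 in preps 1, 2 and 3. The paired difference was 0.47 ± 0.34 (adjusted p = 0.421). That SE is drawn from all 15 arrays. It thus also holds the unlike changes of Timp1 with time among preps, and not only the spread of these differences. Timp2 averaged 960 ± 303 in treated and 926 ± 310 in GP day 3 cultures, with within-prep log2 differences of -0.07 to 0.13. Mmp11 averaged 120 ± 21.8 in treated and 130 ± 14.1 in GP cultures, with differences of -0.38 to 0.06.

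In all, 0 of the 7 tested members passed in the unpaired limma fit at day 3, where 4.28% of all tested probe sets passed. Timp3 was the 1 member with an unadjusted p under 0.05 there, beside 16.8% of all. In the paired fit 2 of 7 passed, both lower, where 14.0% of all tested probe sets passed and 7.05% were lower. At an unadjusted p under 0.05 the paired fit had 3 members and 26.9% of all. The median log2 difference of the 7 members was -0.13, beside 0.00 for all tested probe sets.

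**Figure D2:**
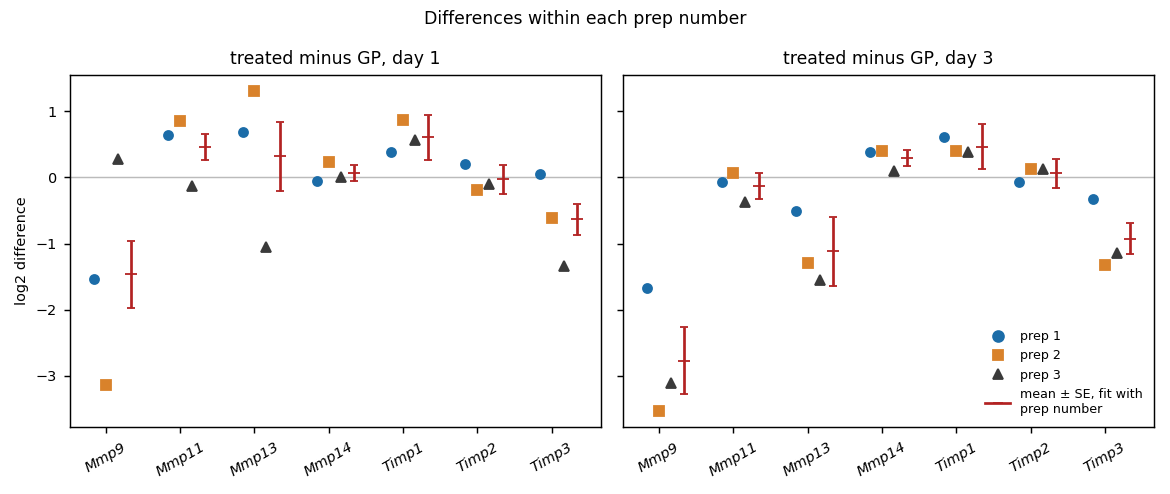
Log2 difference between the treated and the GP culture of the same prep, for the 7 tested genes at day 1 (left) and day 3 (right), with symbols for prep numbers and red bars for the mean ± SE of the paired fit. At day 3 all preps lie below 0 for Mmp9, Mmp13 and Timp3 and above 0 for Mmp14 and Timp1, and at day 1 Timp1 is the only gene with all preps on the same side.

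After 1 day the same comparison gave smaller or less even differences. Timp1 was the only member on the same side of 0 in every prep, at 8291.5, 6657.2 and 1956.4 in treated and 6354.6, 3643.9 and 1322.9 in GP day 1 cultures. Its within-prep log2 differences were 0.38, 0.87 and 0.56 in preps 1, 2 and 3. The paired log2 difference of 0.61 ± 0.34, with the SE again drawn from all arrays, did not pass (adjusted p = 0.364). The prep 3 value of the treated group lay below both higher GP values.

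Mmp9 read 73.0, 9.0 and 6.7 in treated day 1 cultures of preps 1, 2 and 3, against 211.2, 79.2 and 5.5 in GP day 1 cultures. It was lower in preps 1 and 2, with log2 differences of -1.53 and -3.14, and not in prep 3, where both values lay under the filter value. The treated value of prep 2, 9.0, lay under it as well, so the -3.14 rests on a low signal. The paired difference was -1.46 ± 0.51 (adjusted p = 0.115). It passed without the GP array of prep 3 (-2.10, adjusted p = 0.0350) or without all of prep 3 (-2.34, adjusted p = 0.0283). Prep 3 went the other way, so leaving out its arrays favours a call. Timp3 read 561.2, 391.4 and 395.6 in treated and 539.9, 597.0 and 1003.9 in GP day 1 cultures, a paired difference of -0.63 ± 0.24 (adjusted p = 0.142). It passed without the treated array of prep 1 (-0.96, adjusted p = 0.0260) or without all of prep 1 (-0.98, adjusted p = 0.0370). Prep 1 was the only prep in which Timp3 was not lower, so these fits favour a call as well.

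Mmp13 read 2080.5, 1566.8 and 14.3 in treated day 1 cultures and 1287.7, 629.8 and 29.6 in GP day 1 cultures, so that it was higher in preps 1 and 2 and lower in prep 3, where the treated value lay under the filter value. Mmp11 read 246.8, 171.1 and 127.5 in treated and 158.0, 94.2 and 139.4 in GP day 1 cultures, with the same pattern among preps and a paired difference of 0.46 ± 0.20 (adjusted p = 0.216). Mmp14 averaged 1483 ± 379 in treated and 1417 ± 363 in GP cultures, and Timp2 averaged 809 ± 123 in treated and 821 ± 54.2 in GP cultures.

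At day 1, 0 of 7 members passed in the unpaired limma fit, where 0.933% of all tested probe sets passed, and 0 in the paired fit, where 4.96% passed. Taking an unadjusted p under 0.05, there were 0 members and 11.3% of all unpaired, and 3 members and 19.7% of all paired. The median log2 difference of the members was 0.06, beside -0.00 for all tested probe sets. The difference between the day 3 and the day 1 effect was tested as an interaction, and 0 of 7 members and 0.0% of all tested probe sets passed in either fit (lowest adjusted p of a member 0.592, paired). The interaction had, at an unadjusted p under 0.05, 0 members in either fit, with 3.71% of all tested probe sets unpaired and 8.78% paired. Mmp9 had an interaction of -1.31 ± 0.72 and Mmp13 of -1.44 ± 0.74 in the paired fit, neither of which passed, so effects at day 1 and day 3 were not shown to differ.

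Within treated cultures, day 3 was set against day 1. Mmp14 was higher at day 3 in all 3 preps, at 1877.4, 1983.9 and 2048.2 at day 3 and 1081.6, 1534.2 and 1834.1 at day 1, without overlap between the days. Its log2 difference was 0.44 ± 0.12 in the paired fit, just short of the threshold (adjusted p = 0.058), and it was 0.58 both without the treated day 3 array of prep 3 (adjusted p = 0.0154) and without all of prep 3 (adjusted p = 0.0332). Mmp11 was lower at day 3 in all 3 preps, at 138.4, 124.4 and 95.7 at day 3 and 246.8, 171.1 and 127.5 at day 1, a paired difference of -0.57 ± 0.20 (adjusted p = 0.153).

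Timp1 in treated cultures went one way in preps 1 and 2 and the other way in prep 3. It read 3236.1, 2952.8 and 2311.8 at day 3 and 8291.5, 6657.2 and 1956.4 at day 1, with within-prep log2 differences of -1.36, -1.17 and 0.24. Over all preps the paired difference was -0.76 ± 0.34 (adjusted p = 0.278), and without prep 3 it was -1.27 (adjusted p = 0.0054). Prep 3 went the other way, so leaving it out favours a call, and that fit rests on preps 1 and 2 alone. Mmp13 was likewise split, at -0.52, -2.01 and 1.63 in preps 1, 2 and 3, and without prep 3 its paired difference was -1.27 (adjusted p = 0.031). In both fits with all arrays 0 of 7 members passed in the comparison of treated day 3 with day 1, where 0.133% of all tested probe sets passed unpaired and 3.95% paired. An unadjusted p under 0.05 was found for 1 member and 8.37% of all unpaired, and 3 members and 16.6% of all paired.

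**Figure D3:**
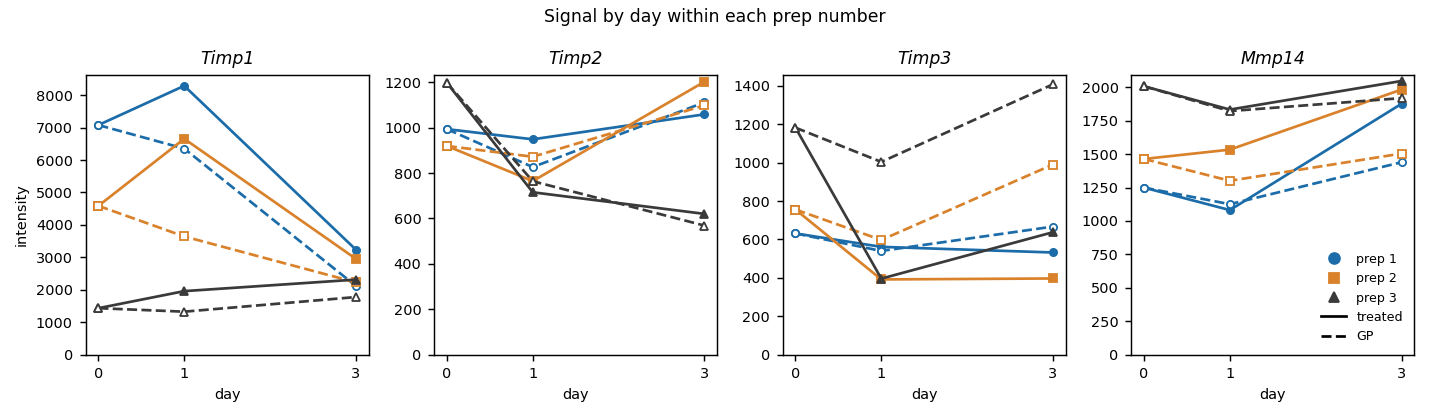
Intensity by day (0, 1 and 3) within each prep number for Timp1, Timp2, Timp3 and Mmp14, with solid lines and filled symbols for treated cultures and dashed lines and open symbols for GP cultures, both starting from the day 0 medium array of that prep. Timp1 is lower at day 3 than at day 1 in preps 1 and 2 and not in prep 3, and the day 3 Timp3 value is lower in the treated than in the GP culture of every prep.

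Within GP cultures, Mmp9 was higher at day 3 than at day 1 in every prep. It read 547.7, 169.7 and 48.5 at day 3 and 211.2, 79.2 and 5.5 at day 1, with ratios of 2.59 in prep 1 and 2.14 in prep 2. In prep 3 the day 1 value lay under the filter value, so no ratio is given there. The paired log2 difference, which includes it, was 1.87 ± 0.51 (adjusted p = 0.0911). Without the GP day 1 array of prep 2 it passed, at 2.46 (adjusted p = 0.0367). Mmp13 was higher at day 3 in all 3 preps (1.14 ± 0.52, adjusted p = 0.370), as were Timp3 (0.51 ± 0.24, adjusted p = 0.374) and Mmp14 (0.21 ± 0.12, adjusted p = 0.493). Timp1 had log2 differences of -1.59 and -0.71 in preps 1 and 2 and of 0.42 in prep 3, and without prep 3 its paired difference was -1.15 (adjusted p = 0.011). That fit leaves out the prep that went the other way. With all arrays 0 of 7 members passed, where 0.706% of all tested probe sets passed in the unpaired limma fit and 1.84% in the paired fit. Unadjusted p-values under 0.05 were found for 0 members and 6.44% of all unpaired, and 3 members and 13.3% of all paired.

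Against control medium at day 0, Mmp9 in GP day 3 cultures was higher in each prep. It read 547.7, 169.7 and 48.5 in GP day 3 cultures and 116.9, 35.5 and 9.1 at day 0, and the ratios of GP day 3 to day 0 were 4.69 in prep 1 and 4.78 in prep 2. The day 0 value of prep 3 lay under the filter value, so no ratio is given there, but it enters the mean difference. The paired log2 difference of 2.30 ± 0.51 did not pass over all tested probe sets (adjusted p = 0.126), of which 1 passed, or 0.0133%, and 0.0% passed unpaired. At an unadjusted p under 0.05 there were 0 members and 4.19% of all in the unpaired limma fit, and 2 members and 9.9% of all in the paired fit. Timp1 in GP day 3 cultures differed from day 0 by -1.74 and -1.04 log2 units in preps 1 and 2 and by 0.31 in prep 3, and without prep 3 the paired difference was -1.39 (adjusted p = 0.0095). Here too the prep left out is the one that went the other way.

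Differences of GP day 1 cultures from day 0 were small or uneven among preps. Mmp9 had the largest mean log2 difference among the tested members, at 0.43. It was at 0.85 and 1.16 in preps 1 and 2 and at -0.73 in prep 3, where both values lay under the filter value. Mmp14, Timp1, Timp2 and Timp3 were lower at GP day 1 in all 3 preps, with mean log2 differences of -0.33 to -0.15, and 0 of 7 members passed in either limma fit, where 0.227% of all tested probe sets passed unpaired and 0.72% paired. At an unadjusted p under 0.05 there were 0 members in either fit, with 3.47% of all unpaired and 7.56% paired. Treated day 3 cultures were also set against day 0. Timp3 was lower in all 3 preps, at 531.8, 396.4 and 637.5 in treated day 3 cultures and 631.1, 755.8 and 1182.3 at day 0, with a paired log2 difference of -0.69 ± 0.24 (adjusted p = 0.077), and it passed without prep 1 (-0.91, adjusted p = 0.027). Mmp14 was higher in all 3 preps, by 0.35 ± 0.12 (adjusted p = 0.076), and it passed without the treated day 3 array of prep 3 (0.49, adjusted p = 0.0169) or without all of prep 3 (0.51, adjusted p = 0.0354). Timp1 had within-prep log2 differences of -1.13 and -0.64 in preps 1 and 2 and of 0.69 in prep 3. Over all preps its paired difference was -0.36 ± 0.34 (adjusted p = 0.593), and without prep 3, which went the other way, it was -0.88 (adjusted p = 0.018). With all arrays 0 of 7 members passed against day 0, where 2.79% of all tested probe sets passed unpaired and 11.9% paired. An unadjusted p under 0.05 was found for 1 member and 15.2% of all unpaired, and 2 members and 24.6% of all paired.

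The prep numbers separated several members more than the culture conditions did. In the paired fit prep 3 was set against the mean of preps 1 and 2 over all 5 groups, a comparison added after the data had been seen. All arrays of prep 3 share a single prep number. The p-values thus measure how even the difference was over the 5 groups, and not the spread among preps. Mmp13, Mmp9 and Timp1 were lower in prep 3, and Mmp14 and Timp3 were higher. Of the 7 members 5 passed, where 39.1% of all tested probe sets passed, 21.7% lower and 17.5% higher.

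Mmp13 ranged from 14.3 to 129.7 in the 5 prep 3 arrays, against 1287.7 to 2080.5 in prep 1 and 388.7 to 1566.8 in prep 2. No prep 3 value reached any value of the other preps, and the log2 difference was -4.86 ± 0.35 (adjusted p = 7.39e-07). Mmp9 ranged from 5.5 to 48.5 in prep 3, against 73.0 to 547.7 in prep 1 and 9.0 to 169.7 in prep 2, a difference of -3.03 ± 0.34 (adjusted p = 2.5e-05). The prep 3 values of Mmp9 other than GP day 3 lay under the filter value of 24.8, and with the floor at 45.6 the log2 difference was -1.23 (adjusted p = 0.0109). Timp1 ranged from 1322.9 to 2311.8 in prep 3, against 2117.0 to 8291.5 in prep 1 and 2226.9 to 6657.2 in prep 2, a difference of -1.30 ± 0.23 (adjusted p = 0.00073).

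Mmp14 was 0.43 ± 0.08 log2 units higher in prep 3 (adjusted p = 0.0011), with a range of 1823.0 to 2048.2 there, against 1081.6 to 1877.4 in prep 1 and 1301.0 to 1983.9 in prep 2. Timp3 was 0.52 ± 0.16 higher in prep 3 (adjusted p = 0.018), and this call was lost without the prep 3 array of day 0, GP day 1 or GP day 3. Timp2 (-0.38 ± 0.15, adjusted p = 0.054) and Mmp11 (-0.16 ± 0.13, adjusted p = 0.364) did not pass. The summed macrophage and osteoclast marker signal was 821.9 to 1072 in prep 3 and 1004 to 1320 in preps 1 and 2, while Ptprc, Itgam, Calcr and Adgre1 averaged 2.79 to 6.09, near the floor. Its tested markers went both ways in prep 3, with Cd14 at -0.93 ± 0.10 (adjusted p = 1.65e-05) and the osteoclast protease Ctsk at 0.57 ± 0.11 (adjusted p = 0.0018). Flt1 (-0.61, adjusted p = 0.0217) and Cdh1 (-0.74, adjusted p = 0.0038) were also lower in prep 3. The part of these signals, and of the depth of prep 3 at the floor, in the prep difference was not tested.

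**Figure D4:**
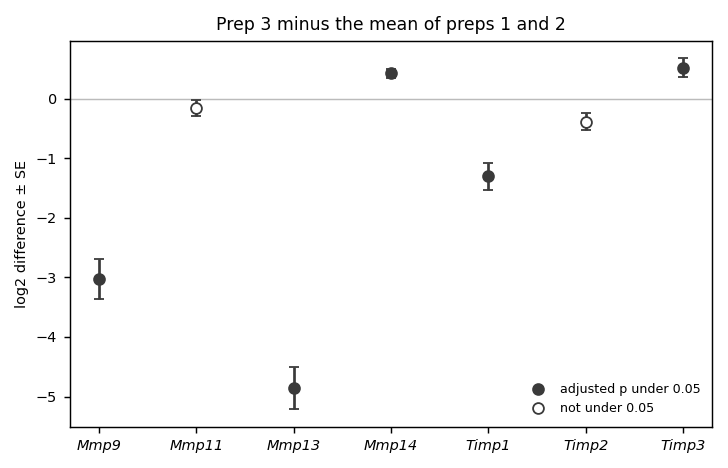
Log2 difference between prep 3 and the mean of preps 1 and 2 over all 5 groups for the 7 tested genes, with bars for ± SE from the paired fit and filled symbols where the adjusted p was under 0.05. Mmp13 at -4.86 and Mmp9 at -3.03 lie farthest below 0, and Mmp14 and Timp3 lie above it.

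The prep number accounted for 91.0% of the variance of Mmp13 log2 values over the 15 arrays, and the culture group for 3.09%. It accounted for 64.8% in Mmp9, 55.8% in Timp1, 53.3% in Mmp14, 31.0% in Timp2, 28.8% in Mmp11 and 20.0% in Timp3. The median over all tested probe sets was 26.8% for prep and 31.2% for group. Timp3 was the member with the largest share by group, at 58.6%, followed by Mmp11 at 36.9%, Mmp14 at 33.7% and Mmp9 at 28.9%. These shares are a description of these arrays.

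Members were also set against each other over the 15 arrays, which share preps and groups. Mmp9 and Mmp13 had a Pearson r of 0.78 and Mmp13 and Timp1 of 0.74, while Mmp14 and Timp1 had -0.77. Once each prep was centred on its own mean, these values were 0.34, 0.12 and -0.51, and the highest was that of Mmp9 with Timp3, at 0.68. Over the same prep-centred values, the genes most like Timp3 among all tested were Ilvbl (r = 0.92), Mpg (0.91) and Cpq (0.91), and those most like Mmp9 were Pja1 (0.92), Gm1673 (0.92) and S100a4 (0.91). The probe sets of Pja1 and Gm1673 carry the suffix for sequences shared within a family, so signal from other transcripts may enter them.

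Genes of related families and functions were also taken from lists. Of 17 other MMP and TIMP genes 7 were on the array and 1 was tested, Mmp16, a membrane-type MMP, which averaged 105 (11.1 to 249.5), while Mmp7, Mmp8, Mmp10, Mmp12, Mmp17 and Mmp24 averaged 1.38 to 16.9. Mmp16 fell in treated day 3 cultures against day 0, with a paired log2 difference of -2.13 ± 0.46 (adjusted p = 0.0093), and -1.79 ± 0.46 against treated day 1 (adjusted p = 0.046), and it passed in neither comparison in the unpaired fit. Against GP day 3 its difference of -1.42 did not pass. The 8 tested ADAM and ADAMTS genes belong to families related to MMPs. In treated day 3 against GP day 3 cultures, 1 fell in the paired fit and 0 in the unpaired fit. Of all tested probe sets 7.05% were lower in the paired fit. The gene that fell was Adam23, at -1.02 ± 0.23 (adjusted p = 0.0096).

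Among 14 tested genes for the activation and clearance of MMPs, treated day 3 against GP day 3 cultures gave 0 higher and 1 lower in the unpaired fit and 1 higher and 5 lower in the paired fit (4.28% of all tested probe sets passed unpaired and 14.0% paired), with a list median of -0.29 beside 0.00 for all tested probe sets. Cav1, the coat protein of caveolae, fell (-1.09 ± 0.21, adjusted p = 0.0097, unpaired). In the paired fit Lrp1, an endocytic receptor that clears several MMPs and MMP-TIMP complexes, fell, at -1.49 ± 0.20 (adjusted p = 0.00051), and Thbs2, a matricellular protein that promotes the uptake of Mmp2, was at -0.91 ± 0.21 (adjusted p = 0.013). Plaur, the receptor of the urokinase activator, was 0.81 ± 0.21 higher (adjusted p = 0.023). At day 1 the paired fit gave 3 lower genes of this list, Bsg at -0.45, Thbs2 at -0.93 and Cav1 at -0.57 (adjusted p 0.013 to 0.027), and 0 passed unpaired. Of all tested probe sets 4.96% passed paired at day 1, 2.88% lower, and 0.933% unpaired. Plat, tissue plasminogen activator, was 1.52 ± 0.24 higher in treated cultures at day 3 than at day 1 (adjusted p = 0.021, unpaired).

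Among 18 tested matrix genes that MMPs can cut, treated day 3 against GP day 3 cultures gave 2 higher and 3 lower in the unpaired fit, and 3 higher and 5 lower in the paired fit, with a list median of -0.19. Of all tested probe sets 4.28% passed unpaired and 14.0% paired, 7.05% lower in the paired fit, and their median was 0.00. Tenascin C (Tnc) was 2.35 ± 0.45 higher (adjusted p = 0.010) and Col3a1, a fibrillar collagen, 1.27 ± 0.24 higher (adjusted p = 0.010), both unpaired. The basement membrane collagens Col4a1 (-2.24 ± 0.28, adjusted p = 0.0011) and Col4a2 (-1.32 ± 0.26, adjusted p = 0.011) fell. In prep 3 against preps 1 and 2, 7 genes of this list were higher and 5 lower in the paired fit. Of all tested probe sets 17.5% were higher and 21.7% lower there. Dcn, the proteoglycan decorin, was 4.15 ± 0.46 higher (adjusted p = 2.02e-05) and Vcan, versican, was at -1.33 ± 0.13 (adjusted p = 7.63e-06).

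Among 18 tested regulators of MMP transcription, treated day 3 against GP day 3 cultures gave 1 higher gene in the unpaired fit, where 4.28% of all tested probe sets passed. This was the growth factor Tgfb1 at 2.36 ± 0.33 (adjusted p = 0.0014). The paired fit, where 14.0% of all passed, added Ets2, an ETS factor, at -0.80 ± 0.20 (adjusted p = 0.016). In prep 3 against preps 1 and 2, 1 was higher and 11 were lower, where 17.5% of all tested probe sets were higher and 21.7% lower, with a list median of -0.63 beside -0.06 for all tested probe sets. Jun, a subunit of AP-1, was at -3.02 ± 0.22 (adjusted p = 7.39e-07), Cebpb at -1.89 ± 0.14 (adjusted p = 8.03e-07), Stat3 at -0.71 ± 0.09 and Jund, another AP-1 subunit, at -0.54 ± 0.07. Mmp13, whose promoter window holds AP-1 letters, was lower in the same arrays. So were Timp1, whose window holds no AP-1 letters, and Mmp9, for which no promoter sequence was available. Whether these changes are linked was not tested.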

How the data were processed

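The 15 arrays carry total RNA of MC3T3 clone 1b cells. The authors deposited 1 linear intensity per probe set and array for 12488 probe sets, and these values are the only ones used. The trimmed mean between the 2nd and 98th percentile was close to 150.0 on every array, so the deposited intensity values had been scaled to a common level. The software and the detection rule are not given in the sources used here.

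The 66 control probe sets were left out, a floor of 2.8 (10th percentile of the table) was applied, log2 was taken, and probe sets with a mean intensity under 24.8 (the 40th percentile) were dropped, which left 7502. Names come from the platform annotation, and all 14 member probe sets matched RefSeq by Entrez identifier with 0 symbols changed. Differences come from limma 3.58.1 run in R 4.3.3, using lmFit, then eBayes with a trend, on all 15 arrays with 1 coefficient per group, leaving 10 residual degrees of freedom, or 8 with the prep number as a block. P-values were adjusted by the Benjamini-Hochberg method over all 7502 probe sets and called at 0.05. Errors of log2 differences are SE from the fit and errors of intensities are SD. The number of arrays limits the precision, and the test was tried on simulated data first.

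Replicate numbers are the prep numbers of the sample titles. Deviations from group means were correlated in all 30 pairs of the same number (0.18 to 0.70, median 0.43), while the highest of 60 pairs with different numbers was 0.26, so the numbers were taken to pair the samples.

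The members and all gene lists were chosen with earlier results of these data known. Named genes were all members, up to 4 genes per list and comparison past the threshold by smallest p, and the 3 genes most like each member that passed. Alternatives were other floors, filters, scalings and variance models, the block, and leaving out arrays. The 50th percentile floor, the comparison of prep 3, and the combinations of the block with other settings or with arrays left out were added after seeing the data.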

Additional observations from a re-analysis of the deposited data

Results flagged for a closer look

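The change of Timp1 between day 1 and day 3 ran in opposite directions among preps. Both prep 3 differences, in treated and in GP cultures, were above 0 (0.24 and 0.42 log2 units), and all 4 differences of preps 1 and 2 were below 0. The mean of prep 3 minus the mean of preps 1 and 2 was 1.54 log2 units. Timp2 showed the reverse, with both prep 3 differences below 0 (-0.21 in treated and -0.43 in GP cultures) and all 4 of preps 1 and 2 above 0, and a difference of -0.71 log2 units. Neither difference was tested.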

How the results depend on the processing

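Without the block, 0 of 7 members passed in each of the 8 comparisons under every setting run: the 25th and 50th percentile floor, no filter or the 60th percentile filter, quantile or median scaling, no trend, array weights, only the groups compared, and leaving out each array or each replicate number. With the replicate block, treated against GP at day 3 gave 2, the 25th percentile floor, 60th percentile filter, quantile normalization, median scaling, no trend and array weights kept it at 2, no filter gave 1 (Mmp9), only the groups compared gave 4, and the 50th percentile floor gave 0. Leaving out a replicate number or an array from the fit with the block gave 1 to 2. Leaving out in the same way gave 0 to 1 for treated against GP at day 1, 0 to 3 for treated day 3 against day 1, 0 to 2 for treated day 3 against day 0, and 0 to 1 for GP day 3 against GP day 1 and against day 0. A call gained only by leaving out arrays that went the other way follows in part from that choice. Array weights with the block gave 1 at day 1 and 1 for GP day 3 against day 1, only the groups compared with the block gave 1 at day 1 and 1 for GP day 3 against day 0, and the 60th percentile filter with the block gave 1 for treated day 3 against day 1. The block changed no other call of a member. Prep 3 against preps 1 and 2 had 5 members called and 4 to 6 without single arrays. The causes were not tested. Over single probe sets 58 values passed under an alternative and not in the fit first reported (unpaired, or paired for prep 3 against preps 1 and 2). Set against those same fits 3 lost a call, all of them Timp3 in prep 3 against preps 1 and 2 without single prep 3 arrays, 141 changed sign without passing in either setting, and 0 that passed changed sign. Among the 7 tested genes low signal limits Mmp9 most, since 6 of its 15 values lie under the filter value.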
